A study of Homo sapiens with 9 samples.

Results

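The genes described here code for the transforming growth factor-beta (TGF-beta) and bone morphogenetic protein (BMP) pathway: its ligands, latent binding proteins, receptors, secreted antagonists, SMAD proteins, inhibitors, corepressors and a few of the genes it induces. The list held 46 gene symbols, and every probe set that the array's gene table assigns to one of them and to no other gene was taken. Probe sets were found for 45 of the 46, 129 in all, out of 19775 genes and 54613 probe sets in the series. BMPR1A was not analysed here. Expression was measured in 3 human breast cancer cell lines on whole-transcriptome arrays, with 3 technical replicates of each line. MDA-MB-231/GFP/Neo is an estrogen receptor (ER) negative, G418-resistant clone that carries green fluorescent protein (GFP). ZR-75-1/GFP/puro is an ER positive, puromycin-resistant pool that also carries GFP. B6TC is an estrogen-independent, GFP positive line that the submitters describe as a fusion of the other two, which are called its ER negative and its ER positive parent here. It was derived in several steps: mice that bore MDA-MB-231 tumors received ZR-75-1 cells through the heart, cells named B6 were recovered from the bone marrow of one such mouse, and B6TC was established from a tumor that B6 cells formed without estrogen supplementation. All 3 lines were grown in the same serum-containing medium and no treatment with TGF-beta or BMP is described for the cultures on the arrays.

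TGF-beta is secreted in a latent complex with a binding protein and, once released, joins a type II receptor (TGFBR2) with a type I receptor (TGFBR1), which phosphorylates SMAD2 and SMAD3. BMPs use their own type I receptors and BMPR2, and pass the signal to SMAD1, SMAD5 and SMAD9. Both arms share SMAD4, which enters the nucleus with the receptor-activated SMADs, and both induce their own inhibitors. In breast cancer TGF-beta is known as a growth inhibitor of epithelial cells and as a driver of the mesenchymal state and of bone metastasis, and MDA-MB-231 is a common model of the latter.

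Each value is a normalized log2 expression level, so a difference of 1 is 2-fold. Levels are compared between lines for the same probe set and never between genes. A probe set was tested where its level was 6 or more on at least 3 of the 9 arrays, and the probe set of highest mean stood for its gene. Of the 129 member probe sets 84 were tested, and 42 members had a tested probe set, 41 of them the representing one. INHBA, GREM1 and SMAD9 had none. ID4 was tested through another probe set than its representing one. Of the 41 genes, 21 had a mean of 6 or more in all 3 lines and 10 in B6TC and MDA-MB-231 alone. Another 5 had it in ZR-75-1 alone, 2 in MDA-MB-231 alone, 2 in B6TC alone (LTBP2 and BMP2) and 1, PMEPA1, in the parents alone. Genes of the last 5 kinds entered the test through the lines where they were high, so a difference from the lines below 6 was in part a condition of entry. The same holds for single probe sets. Of the 84, 12 had a mean of 6 or more in ZR-75-1 alone, 5 in MDA-MB-231 alone and 4 in B6TC alone. Another 21 had it in B6TC and MDA-MB-231 alone, and 2 in the parents alone. Arrays of a line were technical replicates, so every p-value measures the spread of labeling and hybridization and not that between cultures.

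The arrays had medians of 4.89 to 4.96, and 33.8 to 34.7% of probe sets were at 6 or more on each. The mean of 8 mesenchymal markers was 11.54 to 11.58 on the B6TC arrays, 11.35 to 11.42 in the ER negative parent and 4.48 to 4.60 in the ER positive one. The mean of 10 luminal markers was 7.17 and 7.14 on the first and second B6TC arrays and 8.37 on the third, against 7.09 to 7.28 in the ER negative parent and 11.87 to 11.94 in the ER positive one. Among these markers the widest gaps in B6TC were in CDH1 (3.38, 3.26 and 6.89 on its arrays) and TFF1 (5.04, 4.98 and 9.08). The third B6TC array was, except for ESR1 (6.46, 6.21 and 6.24), the highest of the 3 for the luminal markers, 9 of 10. It was also the highest of the 3 B6TC arrays for 7 of the 9 members that were at least 2-fold higher in ZR-75-1 than in the ER negative parent, and for 0 of the 14 members with the opposite difference. Without it, 2 calls of the 20 members given in full changed, those of INHBB and NOG against MDA-MB-231, with the values given below. Single calls of the remaining members, among them TGFB3, LTBP3, BMP7, BAMBI and TGIF1 of the 9, were not examined in this way. By line means all 10 luminal markers were at 6 or more in ZR-75-1, but so were 9 in B6TC and 8 in the ER negative parent. TFF1 was among the 9 (mean 6.37) only through the third B6TC array. All 8 mesenchymal markers were at 6 or more in B6TC and MDA-MB-231, and 2 were in ZR-75-1. In bulk RNA, fewer cells that express a gene and less of its RNA per cell cannot be told apart. Of 10 stromal and blood cell markers 8 had a probe set with 1 symbol in the array's gene table, with means of 4.68 to 5.05 on the 9 arrays. At 6 or more were 2 of them in B6TC, 2 in the ER negative parent and 1 in the ER positive one.

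To place the pathway in B6TC, the line was compared with both of its parents. B6TC had levels much nearer to MDA-MB-231 than to ZR-75-1. Against MDA-MB-231, 27 of the 84 member probe sets were higher and 31 lower at a limma adjusted p of 0.05 or less, while 33.9% of all 21095 tested probe sets were higher and 31.3% lower. Represented by 1 probe set each, 13 of the 41 members were higher (31.7%) and 16 lower (39.0%), against 36.5% and 28.6% of all 10698 tested genes. The median size of a member's difference was 0.33, and that of all genes was 0.25. Of the 41 members 3 were at least 2-fold higher, TGFBR3, ENG and BMP2, and 3 at least 2-fold lower, PMEPA1, BMP4 and SMAD3. Of all genes 2.68% were at least 2-fold higher and 1.03% at least 2-fold lower.

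Against ZR-75-1, 49 member probe sets were higher in B6TC and 26 lower, with 43.0% and 40.6% of all probe sets. As genes, 24 of the 41 were higher and 15 lower, against 42.8% and 41.5% of all genes. The parents differed from each other in a like number: 53 member probe sets were higher in MDA-MB-231 than in the ER positive parent and 25 lower (43.8% and 39.9% of all probe sets), and 25 and 15 members as genes (42.6% and 41.8% of all genes). Against ZR-75-1, the difference reached 2-fold upward in 13 members and downward in 9 (17.6% and 13.7% of all genes), and between the parents 14 were that much higher and 9 that much lower in MDA-MB-231 (16.2% and 15.4% of all genes). The median size of a member's difference was 1.46 against ZR-75-1 and 1.30 between the parents. For all genes it was 0.60 in both. These comparisons share arrays and are not independent of each other. The plot of member levels shows each array.

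**Figure D1:**
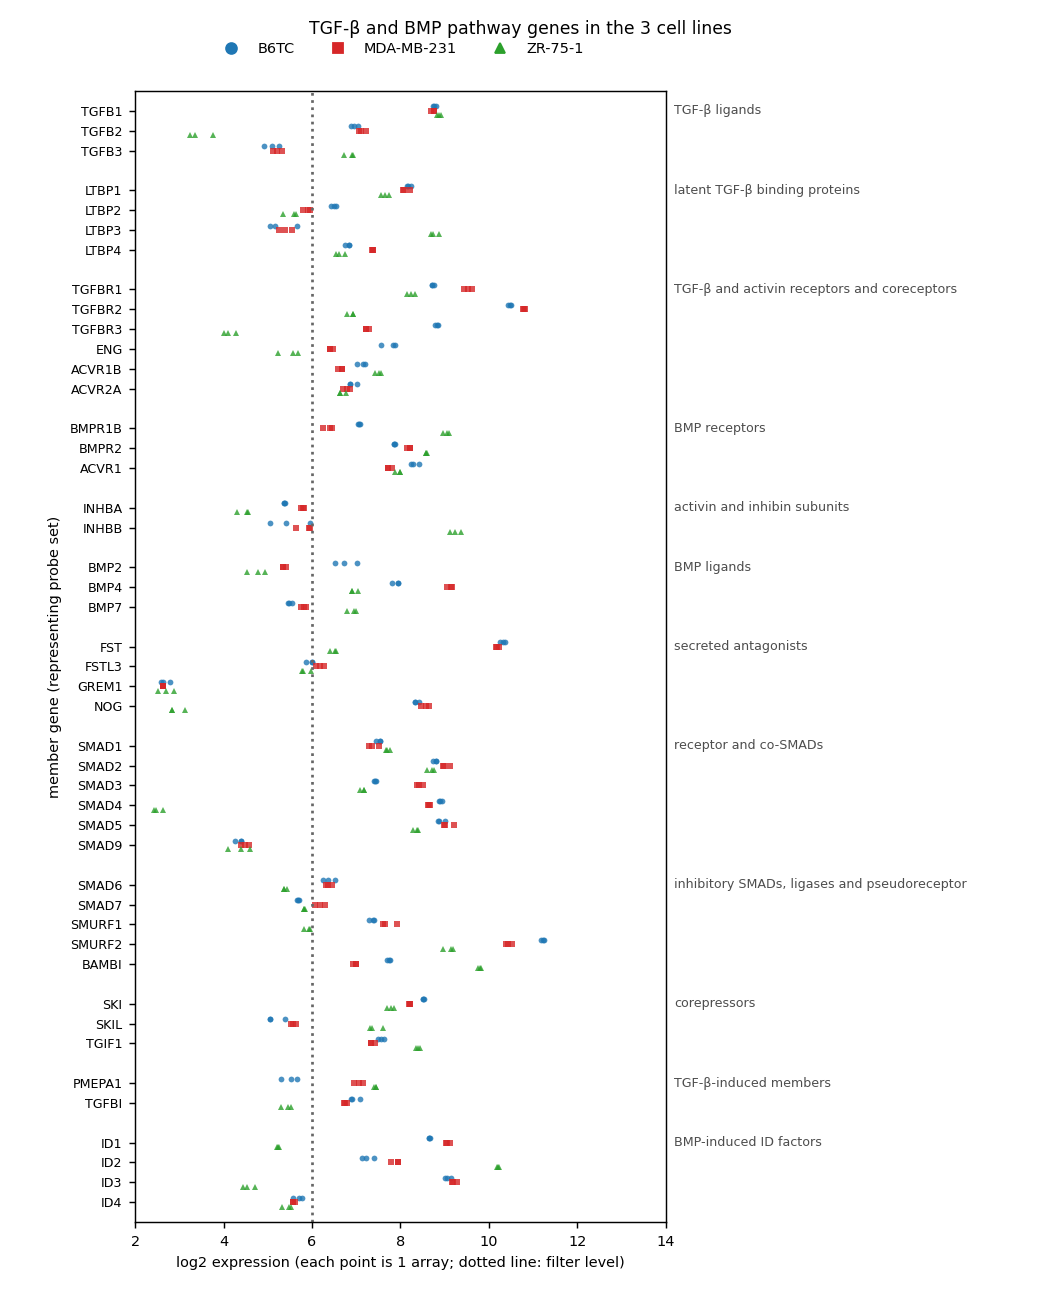
Log2 expression of the representing probe set of each of the 45 members (rows, grouped by role) on the 3 arrays of B6TC (circles), MDA-MB-231 (squares) and ZR-75-1 (triangles), with the filter level of 6 as a dotted line. The B6TC arrays lay near those of MDA-MB-231 for most members, while ZR-75-1 stood far below both for TGFB2, NOG, SMAD4, ID1 and ID3 and far above both for LTBP3, INHBB and ID2.

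Of the TGF-beta ligands, TGFB2 separated the lines and TGFB1 hardly did. TGFB1, the most widely expressed isoform, had means of 8.76 in B6TC, 8.74 in its ER negative and 8.87 in its ER positive parent, and its 1.08-fold lower level in B6TC than in the ER positive parent had an adjusted p of 0.037. TGFB2 was at 7.03, 6.88 and 6.95 on the B6TC arrays, at 7.23, 7.07 and 7.10 on those of MDA-MB-231 and at 3.35, 3.24 and 3.75 on those of ZR-75-1. It was above the filter level in B6TC and MDA-MB-231 and near the bottom of the scale in ZR-75-1. The difference from ZR-75-1 was 3.51 ± 0.12 (SE, n = 3 arrays per line, adjusted p = 6.56e-10), and that from MDA-MB-231 was -0.18 ± 0.12 (adjusted p = 0.194, 0.0319 with the arrays of these lines alone, and 0.0296 without the third ZR-75-1 array). A further tested probe set of TGFB2, 209909_s_at, read 7.72, 7.93 and 7.50 on the B6TC arrays against 6.81, 6.76 and 6.76 in MDA-MB-231, 1.92-fold higher (adjusted p = 1.01e-05), so the order of these lines depends on the probe set. TGFB3 ran the other way: its mean was 6.85 in ZR-75-1, against 5.09 in B6TC and 5.21 in the ER negative parent.

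The latent TGF-beta binding proteins, which anchor the latent ligand in the matrix, did not share a direction. LTBP2 was highest in B6TC, with 6.54, 6.42 and 6.50 on its arrays, 5.79, 5.92 and 5.95 on those of MDA-MB-231 and 5.63, 5.60 and 5.35 on those of ZR-75-1. No B6TC value overlapped those of either parent, and the line was 1.51-fold above MDA-MB-231 (difference 0.60 ± 0.078, adjusted p = 9.12e-05) and 1.94-fold above ZR-75-1 (adjusted p = 8.72e-07). LTBP2 had a mean at the filter level in B6TC alone, so its excess there was in part a condition of entry. LTBP4 was lower in B6TC (mean 6.80) than in the ER negative parent (7.37) by all 3 of its tested probe sets. Against ZR-75-1 (6.63) 1 of the 3 was called, the representing one, at 1.13-fold with overlapping arrays (adjusted p = 0.0181). LTBP3 was 11.2-fold lower in B6TC than in the ER positive parent (means 5.28 and 8.77) by the representing probe set and 2.84-fold lower by 227308_x_at (5.72 and 7.22), and on the former the third B6TC array lay 0.55 over the mean of the remaining pair. LTBP1 had means of 8.19, 8.12 and 7.65 in B6TC, its ER negative and its ER positive parent. Its representing probe set was not called against MDA-MB-231 (adjusted p = 0.34), while 202728_s_at gave 0.23 (adjusted p = 0.000801), and both were higher in B6TC than in the ER positive parent.

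Among the TGF-beta and activin receptors, B6TC had more of both coreceptors and less of TGFBR1 and TGFBR2 than MDA-MB-231. TGFBR3 (betaglycan), a coreceptor that presents TGF-beta to TGFBR2 and also binds inhibin, was at 8.78, 8.86 and 8.82 on the B6TC arrays, 7.30, 7.23 and 7.23 on those of MDA-MB-231 and 4.29, 4.09 and 4.0 on those of ZR-75-1. The lines formed 3 separate steps. B6TC was 2.96-fold above MDA-MB-231 (difference 1.56 ± 0.069, adjusted p = 1.09e-07) and 25.9-fold above ZR-75-1 (difference 4.69 ± 0.069, adjusted p = 3e-12). The other TGFBR3 probe set, 226625_at, kept the order but was only 1.36-fold above MDA-MB-231 (adjusted p = 0.000234). ENG (endoglin), a coreceptor for TGF-beta and BMP ligands best known from endothelium, was at 7.83, 7.88 and 7.56 on the B6TC arrays, 6.40, 6.40 and 6.48 on those of MDA-MB-231 and 5.23, 5.57 and 5.69 on those of ZR-75-1. It was 2.52-fold higher in B6TC than in the ER negative parent (difference 1.33 ± 0.12, adjusted p = 6.11e-06) and 4.81-fold higher than in the ER positive parent (adjusted p = 2.13e-08).

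TGFBR2, the ligand-binding type II receptor, was at 10.51, 10.47 and 10.44 on the B6TC arrays, 10.83, 10.80 and 10.78 on those of MDA-MB-231 and 6.92, 6.92 and 6.79 on those of ZR-75-1. MDA-MB-231 and B6TC had 15.2-fold and 12.1-fold more than ZR-75-1 (differences 3.93 ± 0.050, adjusted p = 1.37e-12, and 3.60 ± 0.050, adjusted p = 1.94e-12). B6TC was 1.26-fold below MDA-MB-231 (adjusted p = 0.00023), and 2.22-fold below it by the other tested probe set, 207334_s_at (adjusted p = 8.73e-06). TGFBR1, its type I partner, was 1.75-fold lower in B6TC than in the ER negative parent (means 8.73 and 9.54, adjusted p = 1.66e-06) and 1.40-fold higher than in the ER positive parent (8.24) by the representing probe set, but 1.02-fold by 206943_at (adjusted p = 0.709), and its 3 tested probe sets were all lower in B6TC than in the ER negative parent. ACVR1B, the activin type I receptor, lay between the parents, with means of 7.13 in B6TC, 6.65 in the ER negative parent and 7.49 in the ER positive one. ACVR2A, an activin type II receptor, had means of 6.91, 6.79 and 6.68 and was higher in B6TC than in the ER positive parent by both tested probe sets, with neither called against MDA-MB-231. Between the parents 228416_at was called (0.88, adjusted p = 5.58e-07) and the representing probe set was not (0.11, adjusted p = 0.131).

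The 3 members grouped as BMP receptors and analysed here were all lower in MDA-MB-231 than in the ER positive parent, and B6TC stood differently in each. BMPR1B, a BMP type I receptor, was at 7.03, 7.07 and 7.08 on the B6TC arrays, 6.46, 6.26 and 6.40 on those of MDA-MB-231 and 9.10, 9.06 and 8.96 on those of ZR-75-1. B6TC lay between its parents, 1.61-fold above MDA-MB-231 (difference 0.69 ± 0.061, adjusted p = 6.14e-06) and 3.94-fold below ZR-75-1 (adjusted p = 3.94e-10). Its probe set 210523_at was called the other way against MDA-MB-231, at -0.30 (means 3.71 and 4.01, adjusted p = 0.046), where both lines were at low levels. BMPR2, the type II receptor, had means of 7.86 in B6TC, 8.20 in the ER negative parent and 8.58 in the ER positive one. All 4 of its tested probe sets were lower in B6TC than in the ER positive parent, but 3 of them were not called against MDA-MB-231 (adjusted p of 0.0911 to 0.665). ACVR1, another type I receptor, was highest in B6TC (8.31), against 7.75 in the ER negative parent and 7.96 in the ER positive one.

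Of the closely related ligands BMP2 and BMP4, B6TC had more of the first and less of the second than its ER negative parent. BMP2 was at 7.02, 6.73 and 6.52 on the B6TC arrays, at 5.34, 5.42 and 5.34 on those of MDA-MB-231 and at 4.78, 4.93 and 4.52 on those of ZR-75-1. Its lowest B6TC value was above every value of the parents, with the third array 0.35 under the mean of the remaining pair. BMP2 had a mean at the filter level in B6TC alone, so this gap was in part a condition of entry. B6TC was 2.63-fold above MDA-MB-231 (difference 1.39 ± 0.13, adjusted p = 7.65e-06) and 4.05-fold above ZR-75-1 (adjusted p = 1.03e-07), and a further probe set, 205290_s_at, gave 1.76-fold and 7.97-fold. BMP4 was at 7.95, 7.95 and 7.82 on the B6TC arrays, 9.14, 9.17 and 9.05 on those of MDA-MB-231 and 7.04, 6.91 and 6.91 on those of ZR-75-1. B6TC lay between the parents, 2.32-fold below MDA-MB-231 (difference -1.21 ± 0.059, adjusted p = 1.84e-07) and 1.94-fold above ZR-75-1 (adjusted p = 9.14e-08). BMP7 was highest in ZR-75-1 by all 4 of its tested probe sets. The representing one had means of 6.92 there, 5.50 in B6TC and 5.81 in the ER negative parent, a 2.68-fold gap between ZR-75-1 and B6TC. The gap was widest by 209591_s_at, with 7.90 against 3.17 in B6TC and 3.22 in the ER negative parent. Between B6TC and MDA-MB-231 its probe sets disagreed, at -0.31 (adjusted p = 0.00125) by the representing one and 0.40 (adjusted p = 0.0097) by 209590_at.

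INHBB, the beta-B subunit of activins and inhibins, was high in ZR-75-1 alone. It was at 9.24, 9.37 and 9.12 there, at 5.41, 5.05 and 5.95 on the B6TC arrays and at 5.64, 5.95 and 5.93 in MDA-MB-231. B6TC was 13.6-fold below ZR-75-1 (difference -3.77 ± 0.19, adjusted p = 1.75e-08). Against MDA-MB-231 the difference of -0.37 did not pass the test (adjusted p = 0.115), and without the third B6TC array, which lay 0.72 over the mean of the remaining pair, it was -0.61 (adjusted p = 0.00311). INHBA, the beta-A subunit, was below the filter level in every line (means 5.37, 5.79 and 4.47 in B6TC, its ER negative and its ER positive parent) and was not tested.

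The secreted antagonists follistatin and noggin were high in B6TC and MDA-MB-231 and far lower in ZR-75-1. NOG (noggin), which binds BMPs and keeps them from their receptors, was at 8.32, 8.42 and 8.32 on the B6TC arrays, 8.64, 8.57 and 8.46 on those of MDA-MB-231 and 2.84, 2.84 and 3.12 on those of ZR-75-1. MDA-MB-231 was 49.3-fold and B6TC 42.7-fold above ZR-75-1 (differences 5.62 ± 0.081, adjusted p = 3.04e-12, and 5.42 ± 0.081, adjusted p = 3.35e-12). The 1.15-fold lower level in B6TC than in the ER negative parent only just passed (adjusted p = 0.0463) and was lost (adjusted p of 0.103 to 0.140) on leaving out the first or the third B6TC array or the first or the second MDA-MB-231 array.

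FST (follistatin), which binds activins, was at 10.36, 10.31 and 10.26 on the B6TC arrays, 10.19, 10.24 and 10.17 on those of MDA-MB-231 and 6.40, 6.52 and 6.54 on those of ZR-75-1. It was 14.2-fold higher in B6TC than in the ER positive parent (difference 3.83 ± 0.051, adjusted p = 1.66e-12) and 13.1-fold higher in MDA-MB-231 than in the ER positive parent (adjusted p = 2.28e-12). By 226847_at the B6TC excess was 169.4-fold over ZR-75-1 and 1.67-fold over MDA-MB-231 (adjusted p = 0.000433), while the representing probe set gave 0.12 against MDA-MB-231 (adjusted p = 0.0717). The remaining tested probe set, 207345_at, gave 0.40 against MDA-MB-231 (adjusted p = 0.00407). The representing one was called with robust regression, robust and trended variances, or arrays centered on their medians (adjusted p of 0.0281 to 0.0431). FSTL3, a relative of follistatin, was at 5.87, 6.01 and 6.01 on the B6TC arrays, 6.19, 6.08 and 6.28 on those of MDA-MB-231 and 5.97, 5.79 and 5.78 on those of ZR-75-1, all close to the filter level. It was 1.17-fold lower in B6TC than in the ER negative parent (difference -0.22 ± 0.072, adjusted p = 0.0205), a call that was lost without the first B6TC array (adjusted p = 0.0804) or the third MDA-MB-231 array (adjusted p = 0.0793). Against ZR-75-1 the difference of 0.11 had an adjusted p of 0.163, which became 0.0437 without the first ZR-75-1 array. GREM1, another BMP antagonist, had means of 2.64 to 2.69 and was not tested.

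**Figure D2:**
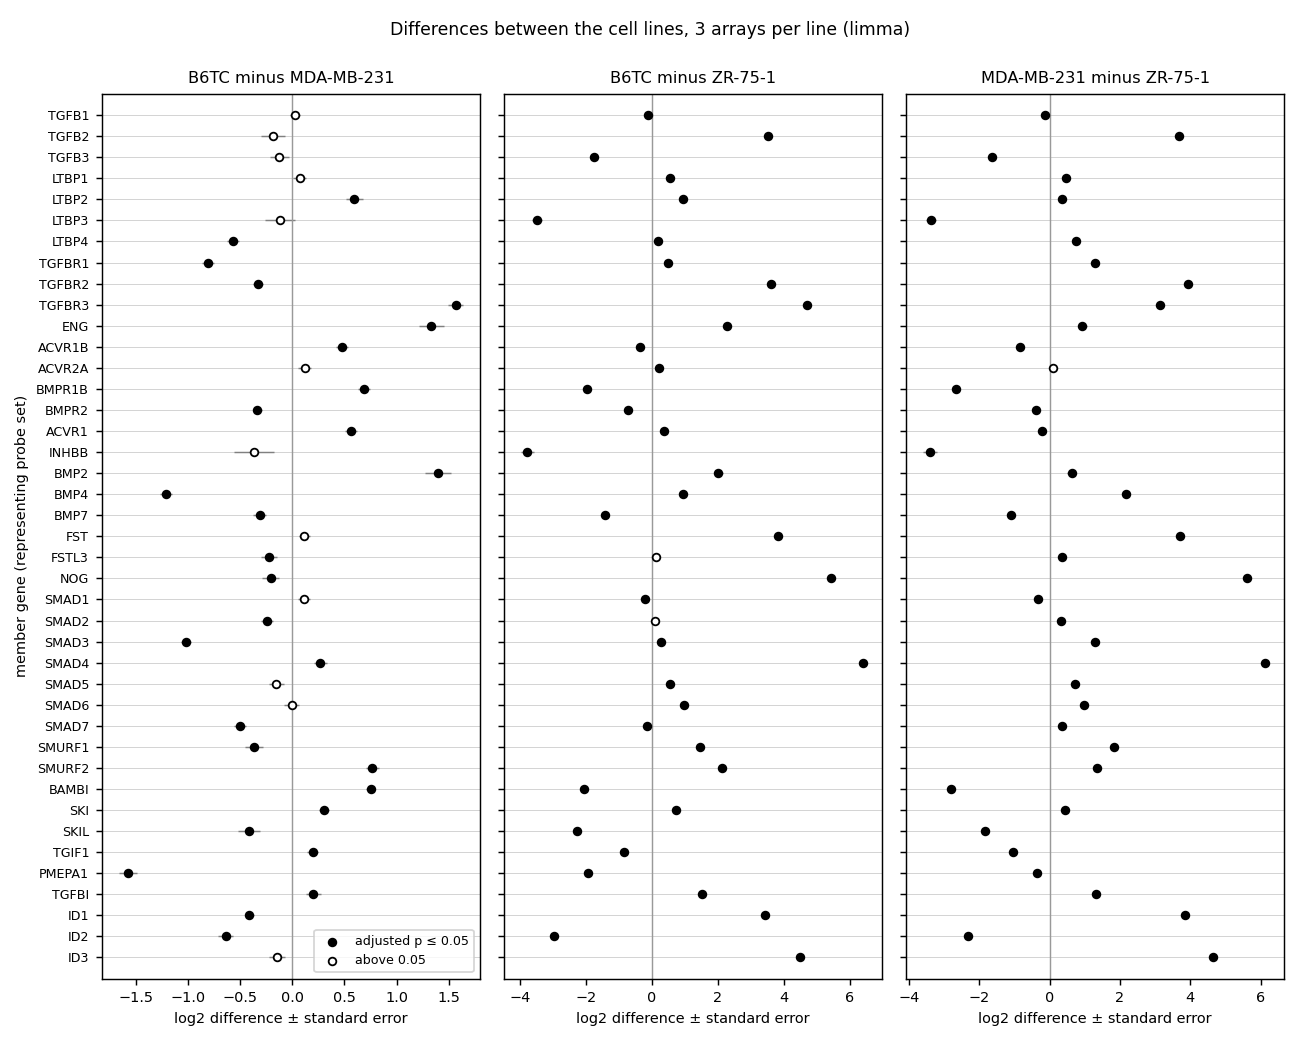
Log2 difference (points) and its standard error (bars) for the 41 members tested by their representing probe set, in the 3 comparisons, filled where the limma adjusted p was 0.05 or less. The B6TC and MDA-MB-231 panel runs from PMEPA1 at -1.57 to TGFBR3 at 1.56, and the panels against ZR-75-1 reach 6.40 and 6.13 for SMAD4.

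SMAD4, the SMAD shared by both arms, had the largest difference of all members by representing probe sets, measured against a level at the bottom of the scale. It was at 8.88, 8.95 and 8.90 on the B6TC arrays and 8.66, 8.65 and 8.62 in MDA-MB-231, and at 2.47, 2.64 and 2.42 in ZR-75-1. B6TC was 84.4-fold and MDA-MB-231 70.0-fold above ZR-75-1 (differences 6.40 ± 0.059, adjusted p = 2.57e-13, and 6.13 ± 0.059, adjusted p = 3.35e-13). The other tested SMAD4 probe set, 235725_at, gave 6.37, 6.26 and 6.18 on the B6TC arrays, 6.34, 6.37 and 6.44 on those of MDA-MB-231 and 4.35, 4.74 and 4.56 on those of ZR-75-1, so the order held at a smaller size (3.29-fold, adjusted p = 2.27e-08, and 3.56-fold, adjusted p = 1.34e-08). The 3 remaining SMAD4 probe sets had means of 2.14 to 4.23 in all lines and were not tested. The small excess of B6TC over MDA-MB-231 (0.27, adjusted p = 0.00246) was seen by the representing probe set alone, since 235725_at gave -0.11 (adjusted p = 0.285).

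SMAD3, which carries the TGF-beta and activin signal with SMAD2, was at 7.44, 7.41 and 7.43 on the B6TC arrays, 8.38, 8.43 and 8.52 on those of MDA-MB-231 and 7.17, 7.17 and 7.09 on those of ZR-75-1. B6TC was 2.02-fold below MDA-MB-231 (difference -1.02 ± 0.049, adjusted p = 1.62e-07) and close to ZR-75-1, from which it differed by 0.29 (adjusted p = 0.000273). Of the other 3 SMAD3 probe sets, 205396_at gave a 3.25-fold and 205397_x_at a 1.66-fold lower level in B6TC than in the ER negative parent, and 205398_s_at gave -0.004 (adjusted p = 0.962). The mean of 205396_at was at the filter level in MDA-MB-231 alone, so its gap was in part a condition of entry. SMAD2 had means of 8.78, 9.02 and 8.69 in B6TC, its ER negative and its ER positive parent, and its 5 tested probe sets split into 1 higher, 3 lower and 1 not called between B6TC and MDA-MB-231. The BMP-regulated SMAD1 (7.50, 7.39 and 7.72) and SMAD5 (8.91, 9.07 and 8.35) did not pass against MDA-MB-231 by their representing probe sets. The other tested SMAD1 probe set, 227798_at, was higher in B6TC than in both parents, by 0.71 (adjusted p = 0.00019) and 0.61 (adjusted p = 0.0003), and 1 of the 5 SMAD5 probe sets was called higher and 2 lower against MDA-MB-231. SMAD9 had means of 4.35 to 4.48 and was not tested.

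**Figure D3:**
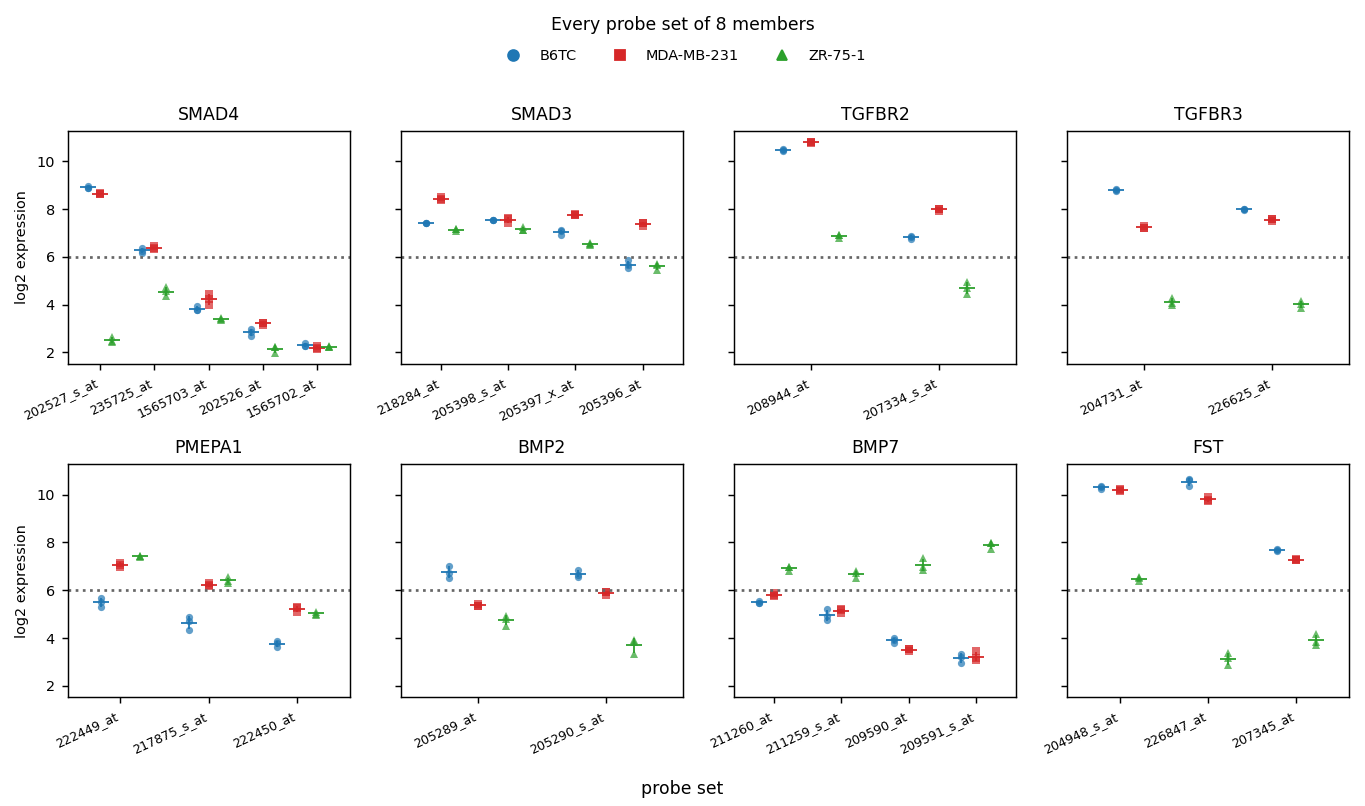
Log2 expression on every array for each probe set of 8 members, with the mean and the standard deviation of the 3 arrays as a cross, and the filter level of 6 as a dotted line. The 2 tested SMAD4 probe sets differ in size but have ZR-75-1 lowest, all 3 PMEPA1 probe sets have B6TC lowest, and the SMAD3 probe set 205398_s_at lacks the drop from MDA-MB-231 to B6TC that the other 3 show.

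Of the inhibitors, SMURF2 and BAMBI were higher and SMAD7 and SMURF1 lower in B6TC than in the ER negative parent. SMURF2, a ubiquitin ligase that marks SMADs and receptors for degradation, was at 11.26, 11.18 and 11.22 on the B6TC arrays, 10.53, 10.40 and 10.44 on those of MDA-MB-231 and 9.15, 8.97 and 9.18 on those of ZR-75-1. B6TC was 1.70-fold above MDA-MB-231 (difference 0.77 ± 0.063, adjusted p = 3.94e-06) and 4.35-fold above ZR-75-1 (adjusted p = 3.19e-10). By 227489_at, the probe set with the next highest mean, B6TC and MDA-MB-231 differed by -0.02 (adjusted p = 0.754), and by the other 2 B6TC was higher. Its relative SMURF1 was lower in B6TC than in the ER negative parent (means 7.36 and 7.73) and higher than in the ER positive parent (5.90). BAMBI, a pseudoreceptor without kinase activity, lay between the parents, with means of 7.73 in B6TC, 6.98 in the ER negative parent and 9.79 in the ER positive one. SMAD7, the inhibitory SMAD that TGF-beta induces, was lower in B6TC (5.68) than in the ER negative parent (6.18) and ZR-75-1 (5.82). SMAD6, the inhibitory SMAD of the BMP arm, had means of 6.37, 6.38 and 5.39, with a difference of -0.01 between B6TC and MDA-MB-231 (adjusted p = 0.954).

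PMEPA1, a membrane protein that TGF-beta induces and that holds back SMAD2 and SMAD3, was, by representing probe sets, the member furthest below MDA-MB-231 in B6TC. It was at 5.29, 5.52 and 5.66 on the B6TC arrays, 7.16, 6.96 and 7.07 on those of MDA-MB-231 and 7.44, 7.45 and 7.40 on those of ZR-75-1. Every B6TC array was below every array of both parents, with the third array 0.26 over the mean of the remaining pair. B6TC was 2.97-fold below MDA-MB-231 (difference -1.57 ± 0.088, adjusted p = 4.03e-07) and 3.84-fold below ZR-75-1 (difference -1.94 ± 0.088, adjusted p = 7.47e-09). The other tested probe set, 217875_s_at, gave 3.01-fold (adjusted p = 2.53e-06) and 3.42-fold (adjusted p = 2.08e-07). Both probe sets had means at the filter level in the parents alone, so the gap of B6TC was in part a condition of entry. TGFBI, a matrix protein named for its induction by TGF-beta, went the other way, with means of 6.96 in B6TC, 6.75 in the ER negative parent and 5.43 in the ER positive one, and its 1.15-fold excess over MDA-MB-231 had an adjusted p of 0.0333.

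The corepressors, which hold SMAD target genes silent, did not share a direction. SKIL was at 5.04, 5.06 and 5.39 on the B6TC arrays, 5.57, 5.63 and 5.53 on those of MDA-MB-231 and 7.60, 7.31 and 7.36 on those of ZR-75-1. It was lowest in B6TC, 1.33-fold below MDA-MB-231 (difference -0.42 ± 0.10, adjusted p = 0.00521) and 4.79-fold below ZR-75-1 (adjusted p = 7.75e-09), and the third B6TC array lay 0.35 over the mean of the remaining pair. SKI was highest in B6TC (8.51), against 8.21 in the ER negative parent and 7.78 in the ER positive one, by the representing probe set. The other tested one, 213755_s_at, was not called in either comparison (6.26, 6.12 and 6.23, adjusted p = 0.108 and 0.68). TGIF1 lay between the parents, with means of 7.56 in B6TC, 7.36 in the ER negative parent and 8.40 in the ER positive one.

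The inhibitor of DNA binding (ID) factors block basic helix-loop-helix transcription factors and are classical targets of BMP signaling. They separated the parents in opposite directions, ID1 and ID3 being high in MDA-MB-231 and ID2 high in ZR-75-1. Bases further upstream were not searched, and only their proximal promoters are shown. Each is the 250 bases before the RefSeq start of the gene (build GRCh38.p14, on the gene's own strand, ID1 at chr20:31605039-31605288, plus strand, ID2 at chr2:8681806-8682055, plus strand, and ID3 at chr1:23559502-23559751, minus strand). Capitals mark matches, on either strand, to GGCGCC or GGAGCC, motifs known from BMP-responsive elements, and to CAGAC, a SMAD-binding motif.
ID1: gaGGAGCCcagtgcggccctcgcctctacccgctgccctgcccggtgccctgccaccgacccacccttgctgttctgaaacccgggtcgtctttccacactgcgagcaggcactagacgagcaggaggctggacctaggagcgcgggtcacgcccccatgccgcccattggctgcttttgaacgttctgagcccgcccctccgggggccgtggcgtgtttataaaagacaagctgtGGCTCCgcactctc
ID2: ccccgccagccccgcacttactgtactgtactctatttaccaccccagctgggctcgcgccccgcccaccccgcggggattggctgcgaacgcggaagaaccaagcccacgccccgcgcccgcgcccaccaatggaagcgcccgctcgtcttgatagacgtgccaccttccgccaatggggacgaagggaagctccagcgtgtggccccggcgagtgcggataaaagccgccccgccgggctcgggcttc
ID3: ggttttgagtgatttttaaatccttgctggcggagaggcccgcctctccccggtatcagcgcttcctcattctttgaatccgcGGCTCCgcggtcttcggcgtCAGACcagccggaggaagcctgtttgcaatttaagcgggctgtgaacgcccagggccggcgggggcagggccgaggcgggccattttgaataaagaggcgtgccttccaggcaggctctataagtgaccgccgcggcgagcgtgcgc
GGCGCC was found in none of the 3. GGAGCC, read as GGCTCC on the other strand, matched at 2 places in ID1 and 1 in ID3. CAGAC, or GTCTG on the other strand, matched once in ID3. Of 35116 promoters of this length 16.4% held GGCGCC, 30.6% GGAGCC and 38.0% CAGAC, and a match is a description of these letters alone. GC content was 66% in ID1, 69.2% in ID2 and 62% in ID3.

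ID1 was at 8.68, 8.64 and 8.65 on the B6TC arrays, 9.05, 9.13 and 9.03 on those of MDA-MB-231 and 5.22, 5.25 and 5.20 on those of ZR-75-1. MDA-MB-231 was 14.4-fold above ZR-75-1 (difference 3.84 ± 0.044, adjusted p = 8.35e-13), and B6TC was 10.8-fold above ZR-75-1 (adjusted p = 1.29e-12) and 1.33-fold below MDA-MB-231 (adjusted p = 2.04e-05). ID3 was at 9.0, 9.14 and 9.05 on the B6TC arrays, 9.29, 9.18 and 9.16 on those of MDA-MB-231 and 4.54, 4.43 and 4.72 on those of ZR-75-1. Its level was 25.1-fold higher in MDA-MB-231 (difference 4.65 ± 0.076, adjusted p = 6.33e-12) and 22.6-fold higher in B6TC (difference 4.50 ± 0.076, adjusted p = 7.22e-12) than in the ER positive parent, and the difference between B6TC and MDA-MB-231 was -0.15 (adjusted p = 0.119).

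ID2 was at 7.12, 7.22 and 7.40 on the B6TC arrays, 7.94, 7.78 and 7.94 on those of MDA-MB-231 and 10.21, 10.23 and 10.18 on those of ZR-75-1. It was lowest in B6TC, 1.56-fold below MDA-MB-231 (difference -0.64 ± 0.074, adjusted p = 3.62e-05) and 7.77-fold below ZR-75-1 (adjusted p = 9.48e-11). Its other tested probe set with 1 gene symbol, 201566_x_at, had the same order, with means of 5.41, 5.63 and 7.86 in B6TC, its ER negative and its ER positive parent. A probe set assigned to both ID2 and ID2B, 213931_at, was left out of the counts. It had means of 4.43, 4.54 and 6.68 and was not called against MDA-MB-231 (-0.11, adjusted p = 0.425). ID4 was below the filter level by its representing probe set (means 5.69, 5.59 and 5.44). By 209291_at it was at 6.74, 6.74 and 6.64 on the B6TC arrays, 5.91, 5.70 and 5.70 on those of MDA-MB-231 and 2.52, 2.73 and 3.01 on those of ZR-75-1, that is 1.91-fold (adjusted p = 4.08e-05) and 15.5-fold (adjusted p = 1.93e-10) higher in B6TC. The mean of 209291_at was at the filter level in B6TC alone, so its excess there was in part a condition of entry.

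**Figure D4:**
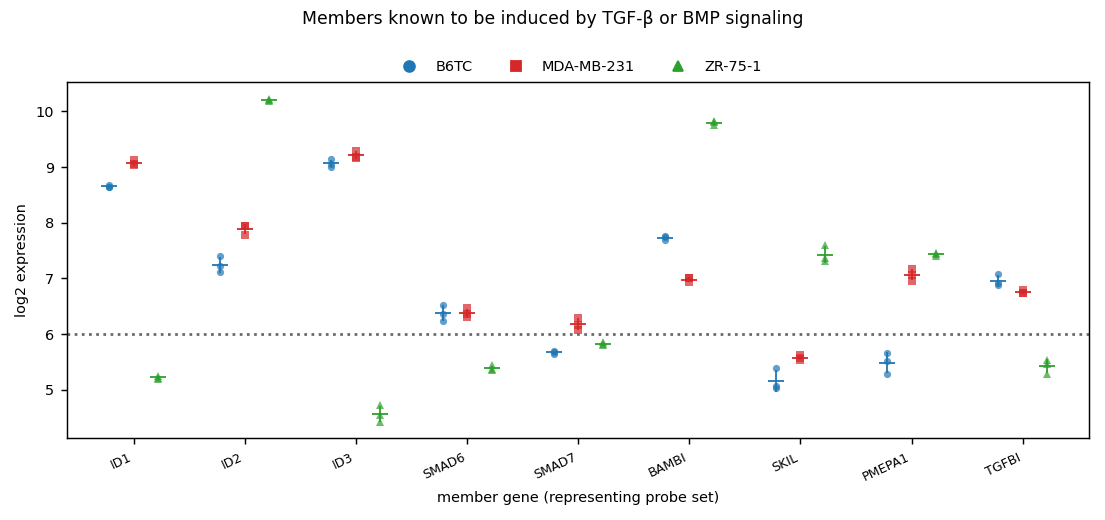
Log2 expression on every array of 9 members known to be induced by TGF-beta or BMP signaling, with the mean and standard deviation of each line (n = 3 arrays) and the filter level of 6 as a dotted line. ID1, ID3, SMAD6 and TGFBI are lowest in ZR-75-1, ID2, BAMBI and SKIL are highest there, and ID2, SMAD7, SKIL and PMEPA1 are lowest in B6TC.

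Read against both parents at once, 12 of the 41 members lay between them in B6TC by their representing probe sets (21.8% of all 10698 tested genes did): 8 below MDA-MB-231 and above ZR-75-1 (LTBP4, TGFBR1, TGFBR2, BMP4, NOG, SMAD3, SMURF1 and ID1, with 9.78% of all genes) and 4 above MDA-MB-231 and below ZR-75-1 (ACVR1B, BMPR1B, BAMBI and TGIF1, with 12.0% of all genes). In B6TC 9 members were above both parents, LTBP2, TGFBR3, ENG, ACVR1, BMP2, SMAD4, SMURF2, SKI and TGFBI (20.1% of all genes), and 6 below both, BMPR2, BMP7, SMAD7, SKIL, PMEPA1 and ID2 (14.6% of all genes). Of the members so placed, LTBP4, TGFBR1, BMPR1B, BMPR2, BMP7, SMAD3, SMAD4, SMURF2 and SKI had another position by at least 1 other tested probe set with 1 gene symbol. The remaining 14 did not pass in 1 or both comparisons. Both comparisons use the same B6TC arrays. Of the 23 members with several tested probe sets, 4 had calls of both signs between B6TC and MDA-MB-231 (BMPR1B, BMP7, SMAD2 and SMAD5), 1 had them against ZR-75-1 (SMAD1) and 0 between the parents.

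The pathway's other genes, 130 in all, were listed by role and 77 of the 119 found in the array's gene table were tested. In B6TC against MDA-MB-231, 25 were higher (32.5%) and 27 lower (35.1%), with 36.5% and 28.6% of all genes as above. Against ZR-75-1, 37 were higher (48.1%) and 29 lower (37.7%), with 42.8% and 41.5% of all genes. Between the parents, 41 were higher (53.2%) and 27 lower (35.1%) in MDA-MB-231, with 42.6% and 41.8% of all genes. The counts of the lists below are to be read against the same shares. Of the 8 tested genes that store or activate latent TGF-beta, 2 were higher and 4 lower in B6TC than in the ER negative parent. THBS1 (thrombospondin-1), an activator of latent TGF-beta, was 2.50-fold lower (means 8.08 and 9.40, adjusted p = 7.31e-07), and FURIN, the protease that cleaves the TGF-beta precursor, was 1.93-fold lower (adjusted p = 3.59e-06). FBN1 (fibrillin-1), the microfibril protein that latent binding proteins attach to, was 1.90-fold higher (adjusted p = 0.000279), and NRROS, which tethers latent TGF-beta to the cell surface, by 0.58 on the log2 scale. ITGB1, an integrin subunit, was higher in MDA-MB-231 than in the ER positive parent by 1.29.

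Of 5 other secreted antagonists tested, 2 were higher and 1 lower in B6TC than in the ER negative parent, and 4 were higher and 1 lower in MDA-MB-231 than in the ER positive parent. CHRDL1, a BMP antagonist of the chordin family, and FSTL1, a relative of follistatin, were 6.22 and 6.15 higher in MDA-MB-231 than in the ER positive parent, and CRIM1, a membrane protein that binds BMPs, was 3.82 higher. NBL1, a BMP antagonist, was 1.87-fold lower in B6TC than in the ER negative parent (adjusted p = 2.81e-07). FSTL1 was 0.60 higher (adjusted p = 0.0199), and TWSG1, a modulator of BMPs, was 0.34 higher. Of 5 other ligands, 1 was higher and 2 lower in B6TC than in the ER negative parent, and 4 were lower in MDA-MB-231 than in the ER positive parent. GDF15, a stress-induced ligand, had means of 5.46 in B6TC, 6.19 in the ER negative parent and 6.67 in the ER positive one. INHBC, GDF11 and BMP8B differed by 0.36, -0.17 and 0.19 between B6TC and MDA-MB-231, the last not called. Of the 2 other receptors and coreceptors tested, RGMB, a BMP coreceptor, was 0.17 and ACVR2B -0.21 against MDA-MB-231.

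Of 28 other intracellular regulators, 10 were higher and 8 lower in B6TC than in the ER negative parent. FKBP1A, which binds and silences type I receptors, was 1.87-fold lower (adjusted p = 2.24e-07), CTDSPL, a phosphatase, differed by -0.78, and EP300, a coactivator of SMADs, and E2F5, a transcription factor, were 0.74 and 0.65 higher. Between the parents, CAV1 (5.86), which helps to take up receptors and is also one of the mesenchymal markers above, and DAB2 (4.14), an adaptor of receptors and SMADs, were higher in MDA-MB-231, and TRIM33, a ligase that acts on SMAD4, was lower there (difference -2.29). Of 24 other genes known to be induced by TGF-beta, 7 were higher and 9 lower in B6TC than in the ER negative parent (29.2% and 37.5%, against 36.5% and 28.6% of all genes), and 16 were higher and 7 lower in MDA-MB-231 than in the ER positive parent (66.7% and 29.2%, against 42.6% and 41.8% of all genes). TAGLN (transgelin), a smooth muscle actin-binding protein, was 2.26-fold higher in B6TC than in the ER negative parent (adjusted p = 1.59e-07), CCN1, a matrix-associated protein, and SNAI2, a repressor of epithelial genes, were 0.74 and 0.66 higher, and WNT5A, a Wnt ligand, was 1.77-fold lower (adjusted p = 0.000107). CCN2, a matrix-associated growth factor, was 8.46, SNAI2 5.60, CCN1 5.13 and HMGA2, a chromatin protein, 5.01 higher in MDA-MB-231 than in the ER positive parent. Of 6 other BMP-induced genes 3 were higher and 2 lower in B6TC than in the ER negative parent: the homeobox gene MSX2 was 1.96-fold lower (adjusted p = 1.56e-06), and GATA6 and HEY1, both transcription factors, were 0.87 and 0.58 higher. The remaining higher one was SNAI2, which is also counted among the TGF-beta-induced genes above.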

How the data were processed

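Total RNA from near-confluent cultures was labeled and hybridized in triplicate to Affymetrix Human Genome U133 Plus 2.0 arrays. The log2 expression values were deposited by the authors as a normalized table. The submitters' processing notes name Affymetrix Expression Console and RMA, and the study's methods name GC-RMA, which subtracts background further. Which of them made the table is not settled here, and the values are used as deposited. Low values, near 2 to 4, have no absolute meaning, and folds against them depend on the background correction. The number of arrays limits the precision. The array's gene table gave 1 symbol to 41091 of 54613 probe sets (62 control probe sets were left out), several to 1801 and none here to 11721. Columns of other samples numbered 0.

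Differences were fitted with limma 3.58.1 in R 4.3.3 over all 9 arrays with 1 mean per line (6 residual and 3.68 prior degrees of freedom). Probe sets at 6 or more on at least 3 arrays were tested, p-values were adjusted by the Benjamini-Hochberg method within each comparison, and calls were made at 0.05. All tests were 2-sided. Full values are given for the 6 members with the largest called difference in each comparison and for the member of each role with the largest difference between B6TC and MDA-MB-231. The other pathway genes named come from the 4 of each list with the largest differences between B6TC and MDA-MB-231 and the 4 with the largest between the parents. Some of these are left out. Other probe sets are given where they change a direction or a call of a member described in full, or its size by a wide margin, and for some further members. The members, the lists and the tests were chosen with earlier results of these data known. The fit was tested on simulated data. Promoter sequences came from RefSeq (GRCh38.p14), which held 42 of the 46 members. Alternatives covered the filter, the regression and variance model, the scaling and normalization, the arrays in the fit, the choice of probe sets, a minimum fold, a replicate block and leaving out each array.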

Additional observations from a re-analysis of the deposited data

How the results depend on the processing

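Of 1173 values of the 20 members given in full, under 20 settings, 1131 kept their direction and their side of the threshold, 29 lost the call, 10 gained one and 3 reversed. The 3 were differences between B6TC and MDA-MB-231: without probe sets that may bind several transcripts SMAD4 was -0.115 and SMURF2 -0.024, and with the mean of a gene's tested probe sets TGFB2 was 0.22. A minimum fold of 2 accounted for 18 of the lost calls. Counts of member probe sets over 1.5 times apart from the reported ones came from settings that test fewer probe sets or ask for a minimum fold. With a filter at 7, 19 were lower in B6TC than in the ER negative parent, 17 lower than in the ER positive parent, and 35 higher in MDA-MB-231 than in the ER positive parent. Without probe sets that may bind several transcripts, 16 were lower in B6TC than in the ER negative parent, 27 higher and 15 lower in B6TC than in the ER positive parent, and 28 higher and 15 lower in MDA-MB-231 than in the ER positive parent, with 31, 38 and 39 of the other pathway genes called. With 1 mean per gene, 17 were higher and 15 lower in B6TC than in the ER negative parent, 26 and 14 against ZR-75-1, and 27 and 15 in MDA-MB-231 than in the ER positive parent. With a minimum fold of 2 the member counts were 3 and 6, 25 and 17, and 29 and 16, and those of the other genes 2, 39 and 43. With arrays centered on their medians, 31 member probe sets were higher and 25 lower in B6TC than in the ER negative parent. Leaving out each array in turn gave 24 to 28 higher and 25 to 31 lower in B6TC than in the ER negative parent, 47 to 49 and 24 to 26 against ZR-75-1, and 53 to 54 and 24 to 26 between the parents.

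The replicate numbers do not pair the arrays: deviations of same-numbered arrays correlated at -0.102 to 0.176 over 9 pairs, and those of others at -0.21 to 0.225 over 18. With the number as a replicate block, 27 member probe sets were higher and 28 lower in B6TC than in the ER negative parent, 48 and 25 against ZR-75-1, and 53 and 25 between the parents, and NOG lost its call between B6TC and MDA-MB-231 (adjusted p = 0.078).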

Other observations

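Since SMAD4 stood at the bottom of the scale in ZR-75-1, its neighbors on chromosome 18 were looked up, a choice made after the values were seen. Of the 8 protein-coding genes on each side in the RefSeq order, 14 were found in the array's gene table and 8 were tested. In ZR-75-1 6 of these were lower than in the ER negative parent, against 42.6% of all tested genes, and 4 by at least 2-fold, against 16.2% of all tested genes: MBD1 (7.66 against 9.13), CXXC1 (8.19 against 9.51), SKA1 (5.31 against 7.24) and ME2 (7.12 against 8.68). POLI was higher in ZR-75-1 (MDA-MB-231 minus ZR-75-1 -1.51), and the difference of MBD2 did not pass the test (0.08, adjusted p = 0.134). What the neighbors' levels have to do with that of SMAD4 was not tested.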
